A study of Homo sapiens with 18 samples.

Results

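DHRS2 and its paralogs DHRS1, DHRS3 and DHRS4 were taken by name, as 4 of the 23571 named genes in a table of RNA sequencing of SW48 cells, an established human colon adenocarcinoma line. DHRS2 was chosen by its FPKM being higher after depletion of CHD4, a chromatin remodelling ATPase that works with class I histone deacetylases in the NuRD complex, and its levels with and without siRNA against CHD4 (siCHD4) are given here as a description with no test. The paralogs were added for their names. The 18 libraries formed 6 groups of 3: siCHD4 and control siRNA alone, both with RNA taken on day 8, siCHD4 and control siRNA after siRNA against the maintenance DNA methyltransferase DNMT1 (siDNMT1), with RNA taken on day 11, and siCHD4 and control siRNA with 50 nM decitabine, with RNA taken on day 5. Decitabine inhibits DNA methyltransferases once it is incorporated in place of deoxycytidine. The control or CHD4 siRNA was given on days 1, 3 and 6 when used alone, on days 7 and 8 after siDNMT1 on days 1, 3 and 5, and on days 1 and 2 with decitabine on days 1, 2 and 3. All groups were of 1 cell line. Nothing in the labels states that the 3 libraries of a group were separate cultures, and p-values therefore speak only of the spread among these libraries, possibly technical. Levels are in FPKM, a fragment count scaled by transcript length and by the mapped fragments of the library.

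Short-chain dehydrogenases and reductases use NAD or NADP to move hydrogen between an alcohol and a carbonyl group on steroids, retinoids, lipids, sugars and foreign compounds. DHRS2, also called HEP27, reduces dicarbonyl compounds, has been placed in mitochondria and the nucleus, has been reported to bind MDM2 and stabilise p53, and is known as a gene that histone deacetylase inhibitors raise in cancer cell lines. DHRS3 reduces retinal to retinol, DHRS4 is a peroxisomal carbonyl and retinal reductase, and DHRS1 is a reductase of the endoplasmic reticulum.

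DHRS2 lies on chromosome 14 (GRCh37, 24099324 to 24114848, plus strand), with DHRS4 (24422943 to 24438488, plus strand) and DHRS1 (24759804 to 24768986, minus strand) on the same chromosome, and DHRS3 lies on chromosome 1 (12627939 to 12678216, minus strand). No annotated gene overlaps DHRS2.

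CHD4 was measured at 31.3 ± 7.87 FPKM in siCHD4 cells and 62.8 ± 4.78 FPKM in control cells, at 28.4 ± 1.12 and 68.2 ± 5.19 FPKM in the siCHD4 and control groups given siDNMT1, and at 54.9 ± 2.06 and 76.2 ± 8.17 FPKM in the siCHD4 and control groups given decitabine (SD, n = 3 each). The libraries of siCHD4 and control cells did not overlap in any of the 3 pairs (exact two-sided permutation p = 0.1 in each, the smallest that 3 against 3 can give). CHD4 was thus 72.1% of its control level with decitabine, against 49.9% alone and 41.6% with siDNMT1. DNMT1 was 12.3 ± 1.15 FPKM in control cells given siDNMT1 and 44.7 ± 0.892 FPKM in control cells. One library, decitabine with control siRNA replicate 0, was the shallowest by the worth of 1 fragment, and libraries of a group correlated at 0.929 to 0.980 over genes. Of 10 epithelial and colon markers, 6 to 8 averaged at least 1 FPKM in each group, EPCAM (131 to 279 FPKM over libraries) and CDX2 (31.1 to 71.0 FPKM) among them, while CDX1 reached 0.0417 FPKM, LGALS4 0.452 FPKM and KRT20 ran from 0 to 4.19 FPKM. Of other cell types' markers, COL3A1 and HBB were listed at 0 in all libraries, LUM (fibroblasts) ran from 0 to 11.8 FPKM and CD68 (macrophages) from 1.16 to 5.13 FPKM.

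DHRS2 was higher in siCHD4 cells than in control siRNA cells in each of the 3 pairs of groups. Without any agent it had 83.0, 114 and 96.2 FPKM in siCHD4 cells and 5.73, 3.54 and 16.8 FPKM in control cells. All siCHD4 libraries lay above all control libraries, and the control library of replicate 2 stood well above the other 2 controls. In means, siCHD4 cells had 97.8 ± 15.8 FPKM and control cells 8.69 ± 7.11 FPKM (SD, n = 3 each), a fold of 11.3, which became 21.1 without control replicate 2, when the control mean was 4.64 FPKM. In RNA from whole cultures, fewer cells of a kind and less RNA per cell cannot be told apart.

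With siDNMT1, DHRS2 reached its highest level of the series, 316, 375 and 333 FPKM in siCHD4 cells, against 41.3, 33.9 and 34.9 FPKM in the control siRNA cells given siDNMT1. The ranges were far apart and each group was tight (341 ± 30.7 and 36.7 ± 4.02 FPKM, SD, n = 3 each), for a fold of 9.29. With decitabine, siCHD4 cells had 54.4, 44.9 and 57.2 FPKM and control siRNA cells 29.4, 18.1 and 16.5 FPKM. These groups did not overlap either, but the fold was 2.45, the smallest of the 3, and the highest control value came from the shallow library. Without that library the fold was 3.02.

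On the log2(FPKM + 1) scale, which understates changes of low genes, the siCHD4 effect on DHRS2 was 3.59 alone, 3.18 with siDNMT1 and 1.29 with decitabine (SE 0.35 each). The difference between the effect with siDNMT1 and the effect alone was -0.40 (SE 0.49). That between decitabine and alone was -2.30 (SE 0.49). Both are descriptions: DHRS2 was chosen for its rise with siCHD4 alone, which can make that effect too large and these differences too low, and the 3 backgrounds also differ in schedule and in how far CHD4 fell, which cannot be told apart from the agent.

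**Figure D1:**
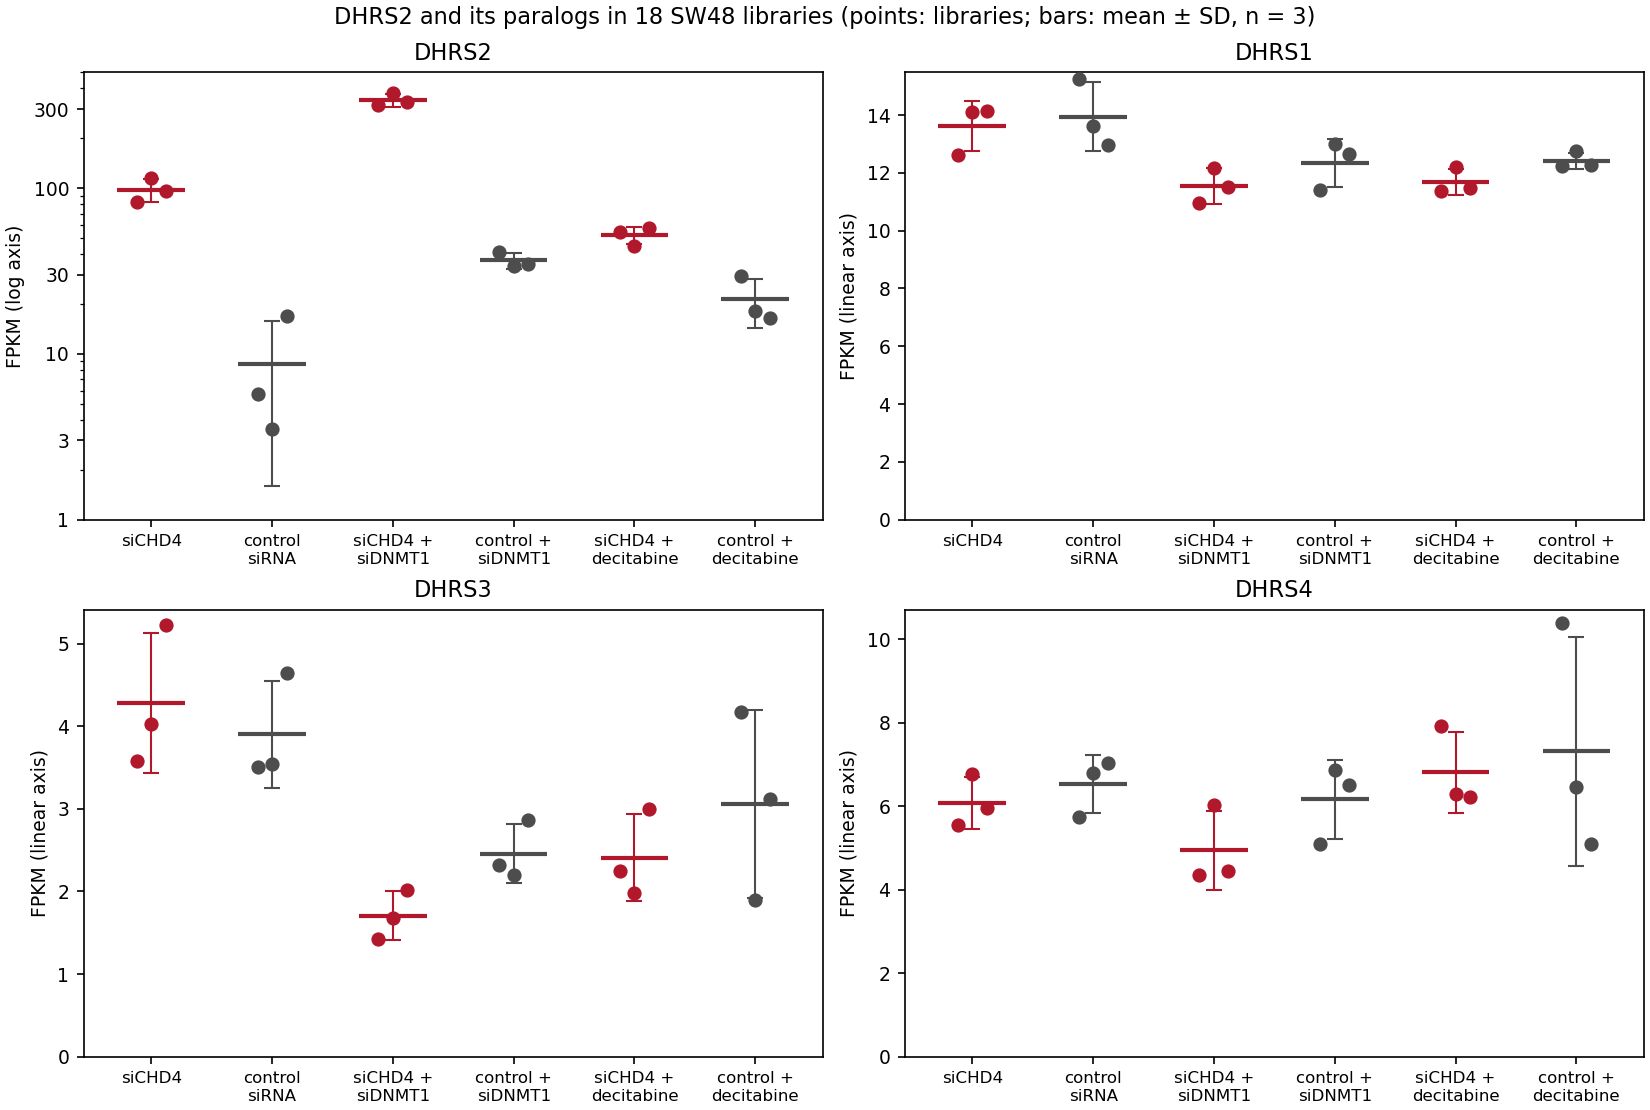
FPKM of DHRS2 (log axis), DHRS1, DHRS3 and DHRS4 (linear axes) in the 18 libraries, by group, with each siCHD4 group (red) left of its control siRNA group (grey); points are libraries and bars are mean ± SD (n = 3). DHRS2 lies between 3.54 and 375 FPKM, and the 3 paralogs stay within 1.21-, 2.50- and 1.48-fold between their lowest and highest group means.

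From low to high, the DHRS2 groups stood in the order control siRNA, control siRNA with decitabine, control siRNA with siDNMT1, siCHD4 with decitabine, siCHD4 alone and siCHD4 with siDNMT1. Only the lowest pair of neighbours overlapped, where the highest control library (16.8 FPKM) was above the lowest decitabine library (16.5 FPKM). Between the highest and the lowest group mean lay a fold of 39.3, which became 73.6 without control replicate 2. Ranked by group mean among the 12809 tested genes, DHRS2 was gene 932 in siCHD4 cells and gene 7406 in control cells, and with siDNMT1 it was gene 257 in siCHD4 cells and gene 2574 in control siRNA cells.

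Each agent without siCHD4 was also set against control siRNA alone, and each agent with siCHD4 against siCHD4 alone. The choice of DHRS2 used its low values in the control libraries and its high values in the siCHD4 libraries, so these 4 comparisons are given for DHRS2 as descriptions with no test. The shares of called genes printed with them are by adjusted p, a measure unlike overlap of libraries. They do not place DHRS2 among the called genes, and the share of all genes without overlap was not counted. In all 4 comparisons the day of RNA differs, so agent and schedule cannot be told apart.

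On the log2 scale DHRS2 was 2.20 higher with siDNMT1 than with control siRNA alone, with no overlap of libraries, and 1.41 higher with decitabine, where the libraries overlapped (SE 0.35 each). In FPKM the folds were 4.23 with siDNMT1 and 2.45 with decitabine, and without control replicate 2 they were 7.92 and 4.60. Among all tested genes, 6.94% were called higher and 4.4% lower with siDNMT1, and 9.6% higher and 8.63% lower with decitabine.

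With siCHD4 and siDNMT1 together DHRS2 was 1.80 above siCHD4 alone on the log2 scale (SE 0.35), a fold of 3.49 with no overlap, where 16.6% of tested genes were called higher, 19.4% lower and 36% in either direction. The effects of siCHD4 alone and siDNMT1 alone sum to 5.79, and the combined group was 5.39 above control siRNA. With siCHD4 and decitabine the level was 53.3% of that with siCHD4 alone, a change of -0.89 (SE 0.35) with no overlap. By adjusted p, which is not a measure of overlap, 6.28% of tested genes were called lower there, 7.66% higher and 13.9% in either direction. The effects of siCHD4 and decitabine sum to 4.99, and the combined group was 2.70 above control siRNA, a fold of 6.00 in FPKM that became 11.2 without control replicate 2.

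The paralogs did not follow DHRS2. DHRS1 had 12.6, 14.1 and 14.2 FPKM in siCHD4 cells and 15.3, 13.6 and 13.0 FPKM in control cells. DHRS3 had 3.58, 4.03 and 5.22 FPKM in siCHD4 cells and 3.51, 3.54 and 4.65 FPKM in control cells. DHRS4 had 5.54, 6.77 and 5.95 FPKM in siCHD4 cells and 5.75, 6.80 and 7.05 FPKM in control cells. The groups overlapped in all 3 genes. Of these 3 paralogs, 0 were called with siCHD4 alone, 0 with siDNMT1 and 0 with decitabine (adjusted p from 0.133 to 0.908, limma, and the smallest unadjusted p 0.0802), where 19.3%, 49.4% and 4.57% of all tested genes were called. The 95% intervals of the siCHD4 effect alone were -0.20 to 0.14 for DHRS1, -0.30 to 0.50 for DHRS3 and -0.49 to 0.31 for DHRS4, so that changes of the size seen in DHRS2 lie outside them.

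Since FPKM is per length, the members can be set beside each other. DHRS2 made up 80.2% ± 1.69 of the summed FPKM of the 4 members in siCHD4 cells and 24.1% ± 14.5 in control cells. With siDNMT1 the share was 94.9% ± 0.0528 in siCHD4 cells and 63.5% ± 4.50 in control siRNA cells, and with decitabine 71.2% ± 2.40 and 47.7% ± 4.08 (SD, n = 3 each). In control cells DHRS1 was the highest of the 4, at 13.9 ± 1.19 FPKM.

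DHRS3, the retinal reductase, was the paralog that varied most. It had 1.42, 1.68 and 2.02 FPKM in cells given siCHD4 and siDNMT1, below every siCHD4 library given above. The change of -0.96 was called lower (SE 0.19, adjusted p = 0.00127, limma), where 19.4% of tested genes were called lower. With siCHD4 and decitabine it had 2.24, 1.98 and 3.00 FPKM, again below siCHD4 alone, with a change of -0.63 (adjusted p = 0.0367, limma, where 6.28% were called lower) that did not hold without siCHD4 replicate 1 or 2 or without decitabine and siCHD4 replicate 0 or 1 (adjusted p from 0.0691 to 0.148). DHRS1 had 11.0, 12.2 and 11.5 FPKM in cells given siCHD4 and siDNMT1. It was lower than with siCHD4 alone by a small margin (-0.22, SE 0.08, adjusted p = 0.0401, limma), and that call was lost after rescaling by the median ratio (-0.16, adjusted p = 0.119) and without siCHD4 replicate 1 or 2 or siCHD4 with siDNMT1 replicate 0 or 2 (adjusted p from 0.0727 to 0.146). DHRS4 was called in none of these comparisons. It had 4.34, 6.03 and 4.45 FPKM in siCHD4 cells given siDNMT1 and 5.10, 6.88 and 6.51 FPKM in control siRNA cells given it. With decitabine it had 7.93, 6.29 and 6.22 FPKM in siCHD4 cells and 10.4, 6.45 and 5.10 FPKM in control siRNA cells. Both pairs overlapped, and the highest DHRS4 value of the series came from the shallowest library. DHRS3 in the control siRNA cells had 2.32, 2.20 and 2.86 FPKM with siDNMT1, all above the siCHD4 cells given it, and 4.17, 1.89 and 3.12 FPKM with decitabine, overlapping the siCHD4 cells given it. DHRS1 in the control siRNA cells had 11.4, 13.0 and 12.7 FPKM with siDNMT1, overlapping the siCHD4 cells given it. With decitabine, DHRS1 had 11.39, 12.22 and 11.50 FPKM in siCHD4 cells and 12.23, 12.75 and 12.28 FPKM in control siRNA cells. These did not overlap, by a narrow margin, and DHRS1 was not called there (adjusted p = 0.586, limma). Against control siRNA alone, 0 of the 3 paralogs were called with siDNMT1 (smallest unadjusted p 0.0179, for DHRS3), where 11.3% of genes were called in either direction, and 0 with decitabine (smallest unadjusted p 0.0731, for DHRS1), where 18.2% were.

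Differences between the siCHD4 effects could be tested for the paralogs, and 0 of 3 were called in any of the 3 (adjusted p from 0.368 to 0.967, limma, smallest unadjusted p 0.107). The shares of tested genes called were 4.12% for siDNMT1 against alone, 1.16% for decitabine against alone and 8.4% for siDNMT1 against decitabine.

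Reads of DHRS4 can be hard to place. The canonical DHRS4 transcript is 98.2% identical to that of DHRS4L2 over 1257 bases, so the values of these 2 genes are uncertain, and DHRS4-AS1, an antisense RNA, overlaps DHRS4. The library kit marks strand, but whether the counting used it is not given in the sources used here. DHRS2 shares 72.6% identity with DHRS4 over 774 aligned bases and 73.1% with DHRS4L2 over 711. Its identity with DHRS4L1 transcripts was higher over shorter stretches, at 85.9% over 177 bases and 83.5% over 206. DHRS1 and DHRS3 gave no alignment to DHRS2.

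The table holds 12 further genes of the DHRS list, including BDH2, which also has a DHRS name. DHRS7C and DHRSX were listed at 0 throughout, and DHRS9 and DHRS4L1 were too low to test. With siCHD4 alone, 0 of the 11 tested genes other than DHRS2 were called, and with decitabine 0 of 11 were (limma, 0 and 1 at an unadjusted p under 0.05), where 19.3% and 4.57% of all tested genes were called. With siDNMT1, 0 of 11 rose with siCHD4 (24.8% of all tested genes) and 3 fell (24.6%, a share near that of the list): DHRS4L2 (2.68 ± 0.726 FPKM in siCHD4 cells and 4.36 ± 0.525 in control siRNA cells, adjusted p = 0.00481, limma), DHRS4-AS1 (12.4 ± 0.531 and 15.9 ± 1.51, adjusted p = 0.00835) and DHRS7B (8.64 ± 0.500 and 11.3 ± 1.15, adjusted p = 0.0493, SD, n = 3 each). The DHRS7B call was lost when any 1 of the 6 libraries was left out. The DHRS4L2 and DHRS4-AS1 values carry the doubt on shared reads given above. The median change of the 11 genes was -0.03, -0.27 and 0.01 alone, with siDNMT1 and with decitabine, against medians of 0.00, -0.01 and 0.01 over all tested genes. Between siCHD4 with siDNMT1 and siCHD4 alone, 6 of the 11 were lower and 0 higher (19.4% and 16.6% of all tested genes). Against control siRNA alone, 0 of the 11 were higher and 0 lower with siDNMT1 (6.94% and 4.4%; BDH2 and DHRS3 had an unadjusted p of 0.0240 and 0.0179), and 0 were higher and 1 lower with decitabine (9.6% and 8.63%), DHRS7B at 9.38 FPKM in decitabine cells and 12.6 FPKM in control cells (means, n = 3 each; adjusted p = 0.0451, limma). That call was lost without any 1 of 5 of the 6 libraries (adjusted p from 0.0664 to 0.150), and it held without decitabine with control siRNA replicate 0. Among the 6 that were lower with both siRNAs than with siCHD4 alone, DHRS11 had 8.98 ± 0.240 FPKM in cells given both siRNAs and 16.9 ± 3.18 FPKM in siCHD4 cells (adjusted p = 0.00256, limma).

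**Figure D2:**
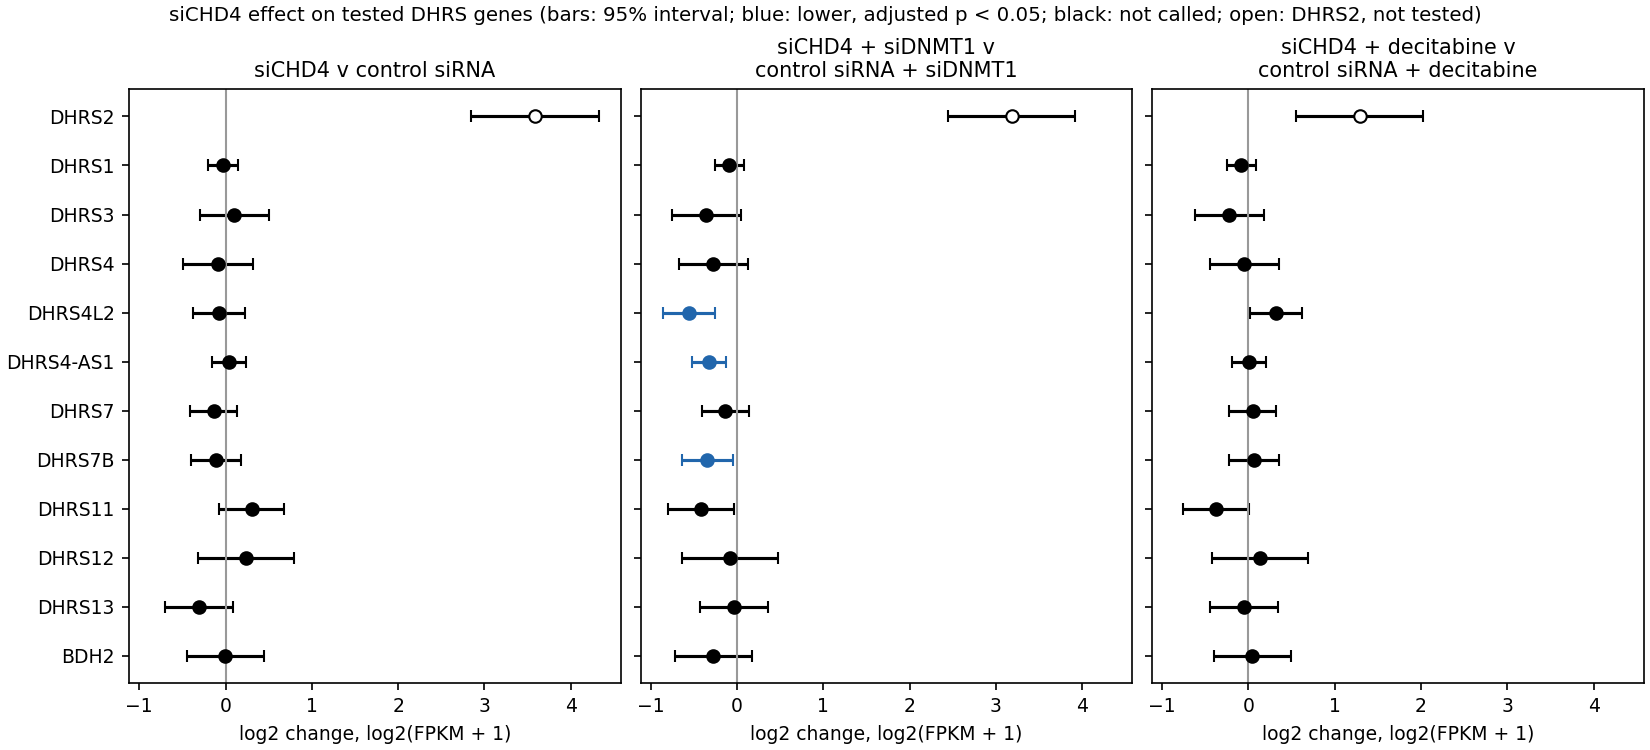
Change between siCHD4 and control siRNA on the log2(FPKM + 1) scale (horizontal axis) for the 12 tested DHRS genes (rows), alone, with siDNMT1 and with decitabine; bars are 95% intervals, blue marks genes called lower, and DHRS2 is open because it was not tested. DHRS2 stands at 3.59, 3.18 and 1.29, and the other genes lie between -0.55 and 0.32, with DHRS4L2 (-0.55), DHRS4-AS1 (-0.33) and DHRS7B (-0.34) called lower with siDNMT1.

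The genes next to DHRS2 on chromosome 14 were looked at by position. These were the nearest 5 on each side among annotated genes whose symbol also has FPKM values here. A nearer gene measured under another symbol would be missed. Of these 10, 6 were tested: NGDN, THTPA and AP1G2 before it and DHRS4-AS1, DHRS4 and DHRS4L2 after it. ZFHX2, JPH4, DHRS4L1 and CPNE6 were too low to test. With siCHD4 alone, 0 of the 6 rose (9.58% of all tested genes), and 1 fell (9.71%): NGDN, which takes part in ribosome small subunit assembly, was lower (-0.41, adjusted p = 0.0428, limma), a call lost without siCHD4 replicate 2 or any 1 of the control libraries (adjusted p from 0.0669 to 0.139), with the replicate block (0.0557), with no filter (0.0630) and in the compared groups only (0.223). With siDNMT1, 0 of the 6 rose (24.8%) and 3 fell (24.6%), where 49.4% of all tested genes were called in either direction. NGDN fell to 38.1 ± 1.29 FPKM in siCHD4 cells, against 58.4 ± 3.67 FPKM in control siRNA cells (adjusted p = 0.00178, limma, SD, n = 3 each), as did DHRS4L2 and DHRS4-AS1 as given above. With decitabine, 0 of the 6 were called (limma; 4.57% of all tested genes), among which DHRS4L2 had an unadjusted p of 0.0421.

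**Figure D3:**
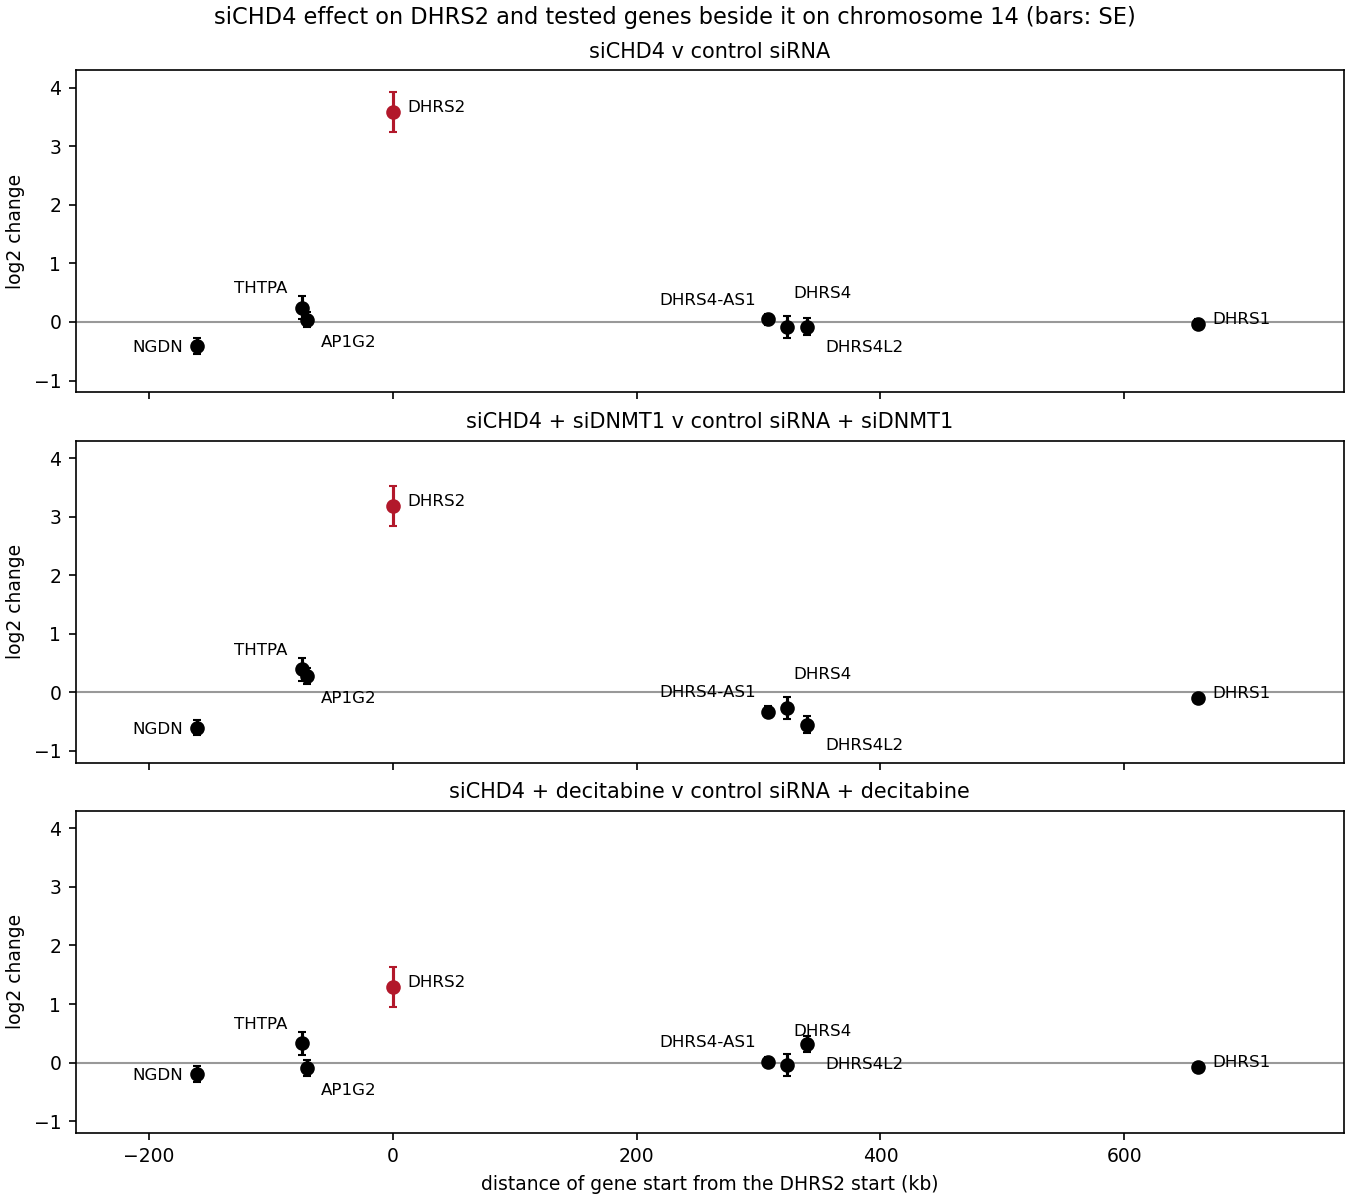
Change with siCHD4 on the log2(FPKM + 1) scale (vertical axis, bars are SE) against the distance of each gene's start from the first DHRS2 start in kilobases (horizontal axis), alone, with siDNMT1 and with decitabine. DHRS2 (red) lies at 3.59, 3.18 and 1.29. The other genes drawn are the tested neighbours, from NGDN at -160.4 kb to DHRS4L2 at 339.8 kb, and DHRS1 at 660.5 kb. They lie between -0.60 (NGDN with siDNMT1) and 0.39 (THTPA with siDNMT1). NGDN, DHRS4L2 and DHRS4-AS1 were called lower with siDNMT1, and NGDN also with siCHD4 alone. Genes between DHRS4L2 and DHRS1 were not looked at.

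Lists of related genes were read beside these results, without a test of any list. Of 43 other short-chain dehydrogenases tested, 1 rose and 9 fell with siCHD4 alone (9.58% and 9.71% of all tested genes), 4 rose and 15 fell with siDNMT1 (24.8% and 24.6%), and 0 rose and 0 fell with decitabine (3.26% and 1.31%; limma, 11 at an unadjusted p under 0.05). HSD17B4, an enzyme of peroxisomal fatty acid oxidation, had 49.7 ± 4.84 FPKM in siCHD4 cells and 77.5 ± 0.827 FPKM in control cells (adjusted p = 0.00108, limma). BDH1, the mitochondrial hydroxybutyrate dehydrogenase, had 9.06 ± 2.00 and 15.8 ± 0.897 FPKM in siCHD4 and control cells (adjusted p = 0.000599, limma), and FAR2, a fatty acyl-CoA reductase, 8.45 ± 2.35 and 13.7 ± 0.288 FPKM (adjusted p = 0.00451). With siDNMT1 all 3 of these fell too, and HSD3B7, of bile acid synthesis, had 20.6 ± 0.907 FPKM in siCHD4 cells and 44.5 ± 2.84 FPKM in control siRNA cells (adjusted p = 0.000773, limma).

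Of 15 genes that histone deacetylase inhibitors often raise, leaving out DHRS2, 3 rose and 2 fell with siCHD4 alone (9.58% and 9.71% of all tested genes), 9 rose and 1 fell with siDNMT1 (24.8% and 24.6%), and with decitabine 0 were called (4.57%; limma, 4 at an unadjusted p under 0.05). TXNIP, the thioredoxin-interacting protein, had 125 ± 76.5 FPKM in siCHD4 cells and 12.3 ± 3.66 FPKM in control cells (adjusted p = 5.45e-06, limma), and with siDNMT1 95.9 ± 8.03 FPKM in siCHD4 cells and 22.4 ± 1.11 FPKM in control siRNA cells. H1F0, a linker histone, had 84.2 ± 13.5 FPKM in siCHD4 cells and 52.6 ± 9.12 FPKM in control cells (adjusted p = 0.00295, limma). With siDNMT1, CTGF had 8.34 ± 0.518 FPKM in siCHD4 cells and 1.23 ± 0.0831 FPKM in control siRNA cells (adjusted p = 1.06e-05, limma). The list median was 0.11, 0.46 and 0.10 alone, with siDNMT1 and with decitabine, against 0.00, -0.01 and 0.01 over all tested genes. Of 15 tested class I deacetylases and NuRD partners, 3 rose and 2 fell with siCHD4 alone (9.58% and 9.71% of all tested genes), 3 rose and 5 fell with siDNMT1 (24.8% and 24.6%), and 0 were called with decitabine (4.57%; limma, 3 at an unadjusted p under 0.05).

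Of 25 tested p53 and MDM2 genes, 8 rose and 0 fell with siCHD4 alone (9.58% and 9.71% of all tested genes), 6 rose and 4 fell with siDNMT1 (24.8% and 24.6%, shares no lower than those of the list), and 1 rose and 0 fell with decitabine (3.26% and 1.31%). CDKN1A, which encodes the cell cycle inhibitor p21 and stands in the deacetylase inhibitor list too, had 55.5 ± 15.1 FPKM in siCHD4 cells and 22.8 ± 9.66 FPKM in control cells (adjusted p = 0.00114, limma), and TP53I3 had 33.5 ± 8.35 and 19.4 ± 0.913 FPKM (adjusted p = 0.00313). Against control siRNA alone, 7 rose and 0 fell with siDNMT1 (6.94% and 4.4%), and 19 rose and 0 fell with decitabine (9.6% and 8.63%), where CDKN1A had 85.8 ± 15.4 FPKM and SESN2 6.73 ± 0.0900 FPKM, against 22.8 ± 9.66 and 2.99 ± 0.215 FPKM in control cells. Of 17 tested retinoid genes, 2 rose and 0 fell with siCHD4 alone (9.58% and 9.71%), 4 rose and 3 fell with siDNMT1 (24.8% and 24.6%), and 0 rose and 1 fell with decitabine (3.26% and 1.31%). CRABP2, which binds retinoic acid, had 58.8 ± 5.53 FPKM in siCHD4 cells and 31.1 ± 2.19 FPKM in control siRNA cells with siDNMT1 (adjusted p = 0.00225, limma). That reference level was itself lower than with control siRNA alone, by -0.98 to -0.76 on the log2 scale with 1 library left out.

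In a fit on the 6 compared libraries, the calls with siCHD4 alone were lost for BDH1 (adjusted p = 0.0657, limma), FAR2 (0.118), CDKN1A (0.0823), TP53I3 (0.0765) and H1F0 (0.0785), and those of HSD17B4 and TXNIP held. The keratins KRT8 and KRT18 carry most of the epithelial sum below. With siCHD4 alone, 3 of 8 tested epithelial markers rose and 2 fell (9.58% and 9.71% of all tested genes). With siDNMT1, 5 of the 8 rose and 2 fell (24.8% and 24.6%). With decitabine, 1 of the 8 rose and 2 fell (3.26% and 1.31%). The summed FPKM of 10 epithelial and colon markers was lower in siCHD4 cells (1197 to 1365) than in control cells (2014 to 2126), and likewise with siDNMT1 (1054 to 1097 in siCHD4 cells, 1799 to 1878 in control siRNA cells) and with decitabine (1443 to 1502 and 1883 to 2457). Summed over 9 fibroblast markers, siCHD4 cells given siDNMT1 had 14.2 to 16.0 FPKM and control siRNA cells given it 3.99 to 4.11, mostly LUM. Here 3 of 3 tested fibroblast markers rose (24.8% of all tested genes). Over 7 blood cell markers these groups had 7.68 to 9.09 FPKM and 2.78 to 4.45 FPKM, and 3 of 4 tested rose (24.8%). With siCHD4 alone 0 of 3 fibroblast and 0 of 4 blood markers were called (limma, 0 at an unadjusted p under 0.05), where 19.3% of all tested genes were. The fibroblast sums were 0.414 to 3.80 FPKM in siCHD4 cells and 0.121 to 0.490 FPKM in control cells, which overlap. The blood sums were 2.71 to 4.20 FPKM in siCHD4 cells and 2.25 to 4.07 FPKM in control cells. With decitabine 1 of 3 fibroblast and 0 of 4 blood markers rose (3.26% of all tested genes). The fibroblast sums were 6.79 to 7.70 FPKM in siCHD4 cells and 0.624 to 3.90 FPKM in control siRNA cells, with no overlap. The blood sums were 5.44 to 6.20 FPKM in siCHD4 cells and 4.21 to 6.24 FPKM in control siRNA cells. The part of these markers in the results was not tested.

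By Pearson correlation of log2(FPKM + 1) over the 18 libraries, the 6 genes most like DHRS2 were LGALS1 (r = 0.951), CCDC71L (0.948), KIAA0513 (0.943), ZBTB46 (0.940), ISY1-RAB43 (0.937) and TSPAN9 (0.937). The 3 most opposite were SLC16A9 (r = -0.974), ALDH3A1 (-0.952) and TMC5 (-0.947). These values describe 6 groups of libraries more than 18 independent points. LGALS1, a galactose-binding lectin, had 57.2 ± 11.9 FPKM in siCHD4 cells and 3.35 ± 1.66 FPKM in control cells, 270 ± 16.3 and 12.0 ± 3.65 FPKM with siDNMT1, and 58.3 ± 6.54 and 5.87 ± 0.602 FPKM with decitabine (SD, n = 3 each). ALDH3A1, an aldehyde dehydrogenase, had 15.5 ± 2.50 FPKM in siCHD4 cells and 48.9 ± 3.47 FPKM in control cells, and 8.26 ± 0.283 and 33.0 ± 2.09 FPKM with siDNMT1. The paralogs were not near DHRS2 by this measure (DHRS1 -0.50, DHRS3 -0.41 and DHRS4 -0.38).

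**Figure D4:**
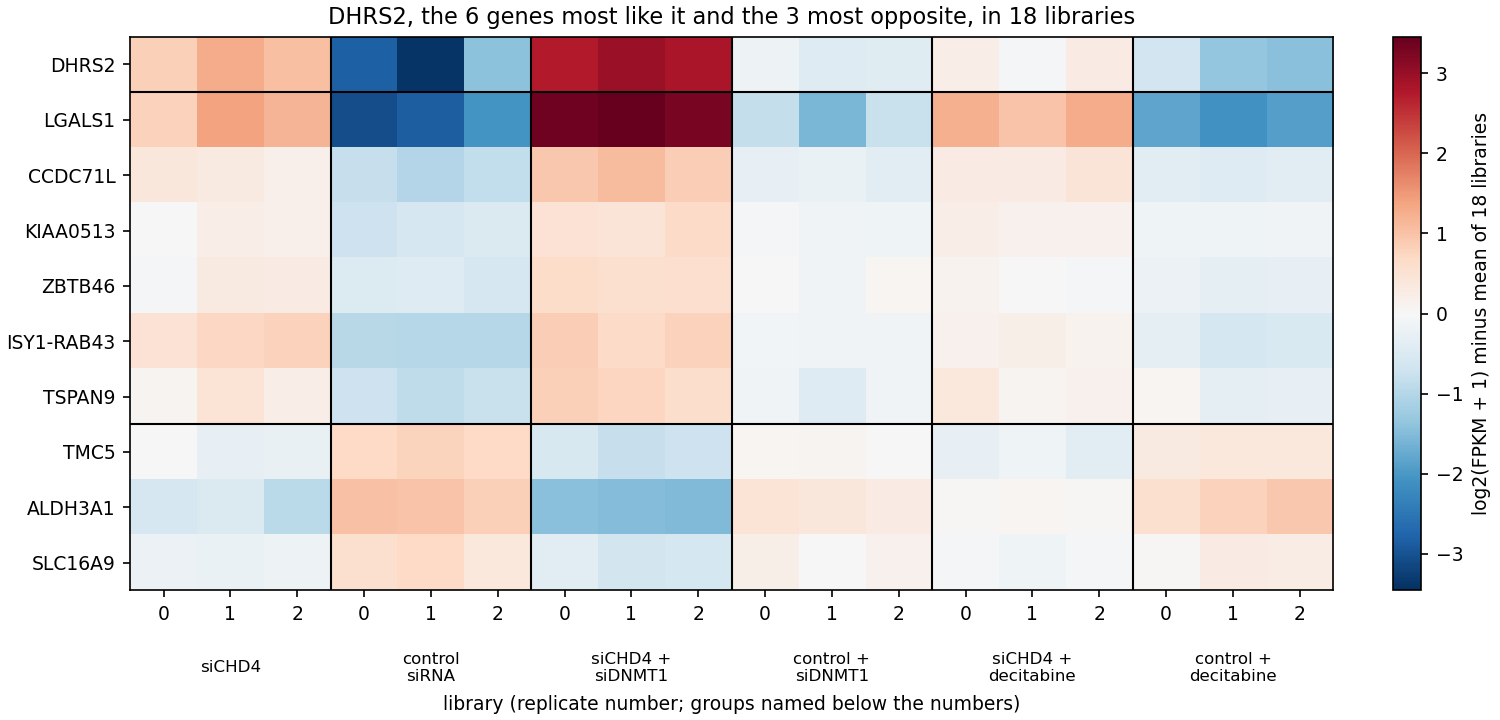
Centred log2(FPKM + 1) (colour: red above and blue below the mean of the 18 libraries) of DHRS2, the 6 genes most like it and the 3 most opposite (rows) in each library (columns, by group). DHRS2 and LGALS1 span the widest range and peak in the 3 libraries of siCHD4 with siDNMT1; ALDH3A1 is lowest there.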

How the data were processed

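RNA of SW48 cells was sequenced in 18 libraries. Per the labels, libraries were made with a stranded total RNA kit after removal of ribosomal RNA. Alignment to hg19 was by TopHat2 2.0.9, per the submitters' processing notes, and the authors computed FPKM with Cuffdiff 2.1.1; which annotation and scaling they used is not given in the sources used here. Of 23599 entries in the deposited FPKM table, 28 (0.119%) hold a calendar date where the gene symbol should be and were not used. Read totals were not used here, so depth is unknown beyond the relative worth of 1 fragment, and no counting intervals are given.

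Values were taken to log2(FPKM + 1). The 12809 genes that reached 1 FPKM in 3 or more libraries were fitted with limma 3.58.1 in R 4.3.3, as 1 mean per group across the 18 libraries, leaving 12 residual degrees of freedom and using a variance trend; p-values are two-sided, adjusted by Benjamini-Hochberg over all tested genes and called below 0.05. The fit was tested on simulated data. DHRS2 was in the fit, but tests of it that were planned for the agents are not given, since the gene was chosen on libraries they use. The members and lists were chosen with earlier results of these data known. The named genes are the members, CHD4, DNMT1, DHRS genes, neighbours, genes alike and opposite, and up to 5 genes of a list by smallest p, among which those that kept their call were preferred after values were seen. Gene positions are from GRCh37 with its GENCODE lift. The sequence around the DHRS2 start is not reported here. Transcripts were aligned with blastn 2.17.0. The replicate numbers 0 to 2 were not taken to pair libraries: residuals of libraries sharing a number correlated between -0.310 and 0.126. As alternatives, the pseudocount was set to 0.1, the filter was dropped or raised to 5 FPKM, and fits were made with median ratio rescaling, quantile normalization, a replicate block, the compared groups only or 1 library left out at a time.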

Additional observations from a re-analysis of the deposited data

Results flagged for a closer look

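These are differences between siCHD4 effects, in log2(FPKM + 1), that passed the limma test of the difference itself. Only DHRS genes and the list genes named for a siCHD4 effect were looked through. Of all tested genes, 4.12% were called for siDNMT1 against alone, 1.16% for decitabine against alone and 8.4% for siDNMT1 against decitabine. The list genes were named by a small p of a siCHD4 effect that the differences reuse, which can make these differences too large in size. CTGF responded more to siCHD4 with siDNMT1 than alone, by 1.85 (adjusted p = 0.00411, limma), and more than with decitabine, by 1.84 (adjusted p = 0.00674). TXNIP responded less with decitabine than alone, by -2.38 (adjusted p = 0.00933, limma), which was not called in a fit on the compared groups (adjusted p = 0.0781). DHRS4L2 responded lower with siDNMT1 than with decitabine, by -0.87 (adjusted p = 0.0209, limma), a call lost without siCHD4 with siDNMT1 replicate 0 (0.0624) or control siRNA with siDNMT1 replicate 1 (0.0582), and its reads may mix with those of DHRS4. HSD17B4 differed the same way by -0.63 (adjusted p = 0.0258, limma), a call lost after quantile normalization and without any of 5 libraries (0.0591 to 0.0828). CHD4 itself responded lower with siDNMT1 than with decitabine, by -0.77 (adjusted p = 0.0289, limma). The backgrounds thus differ in schedule and in how far CHD4 fell, which cannot be told apart from the agent.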

How the results depend on the processing

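Of 200 values of the paralogs under other settings, 12 changed sign or side of the threshold, and 26 of 234 with 1 library left out; DHRS2 was only described. Small effects changed sign: DHRS1 with siCHD4 alone was 0.0035 after median ratio rescaling, DHRS3 with siCHD4 alone -0.0125 after quantile normalization, and the DHRS1 difference between siDNMT1 and decitabine 0.0376 and 0.0304 under these settings. After quantile normalization the DHRS2 effect with siDNMT1 was 3.45, DHRS3 fell with siCHD4 and siDNMT1 (-0.68, adjusted p = 0.00623, limma), and DHRS1 was lower in siCHD4 with decitabine than in siCHD4 alone (-0.24, 0.0424). Median ratio rescaling ended the DHRS1 call between siCHD4 with siDNMT1 and siCHD4 (-0.16), and no filter the DHRS3 call between siCHD4 with decitabine and siCHD4 (-0.63, 0.0526). In the compared groups only, calls came for DHRS3 with siCHD4 and siDNMT1 (-0.35, adjusted p = 0.0323, limma) and for DHRS3 with siDNMT1 against control (-0.50, 0.0361). Calls went, against siCHD4, for DHRS1 with siDNMT1 (-0.22, 0.136) and DHRS3 with decitabine (-0.63, 0.0745). With 1 mean per group, this setting cannot change a difference of group means, only its SE and p. The DHRS2 values, 1.41 with decitabine against control and -0.89 against siCHD4, are therefore the same by construction and say nothing of robustness. The cause of the changes under these settings was not tested.

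With 1 library left out, the effect of siCHD4 alone ran from -0.0776 to 0.0332 for DHRS1 and from -0.0216 to 0.21 for DHRS3, and with decitabine from -0.24 to 0.21 for DHRS4. Against control siRNA, DHRS4 ran from -0.15 to 0.0344 with siDNMT1 and from -0.16 to 0.29 with decitabine, and DHRS2 from 0.98 to 1.97 with decitabine. Against siCHD4, DHRS1 ran from -0.27 to -0.19 with siDNMT1 and DHRS3 from -0.75 to -0.50 with decitabine. Differences of effects ran from -0.96 to 0.0205 for DHRS2 (siDNMT1 minus alone), from -0.16 to 0.29 for DHRS4 (decitabine minus alone), and from -0.0611 to 0.0258 for DHRS1 and -0.32 to 0.0944 for DHRS3 (siDNMT1 minus decitabine).

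Of counts of called genes, 2471 with siCHD4 alone became 514 in the compared groups only, and 586 with decitabine became 306 (filter of 5 FPKM) and 147 (compared groups only). Against control siRNA, 1452 with siDNMT1 became 961 and 2774 under these settings. In the compared groups only, 2335 with decitabine became 929, and against siCHD4, 4612 with siDNMT1 and 1786 with decitabine became 2398 and 837. Of the differences, siDNMT1 minus alone gave 317 (pseudocount 0.1), 1093 (no filter) and 219 (filter of 5 FPKM) beside 528, decitabine minus alone to 83 (filter of 5 FPKM), 97 (replicate block) and 42 (compared groups only) beside 148, and siDNMT1 minus decitabine to 693 (pseudocount 0.1), 692 (replicate block) and 1906 (compared groups only) beside 1076. With 1 library left out they were 1488 to 2585 with siCHD4 alone, 4869 to 5777 with siDNMT1, 294 to 637 with decitabine, 884 to 1091 and 1316 to 2339 for siDNMT1 and decitabine against control siRNA, 3019 to 6152 and 1063 to 3395 against siCHD4, and 224 to 2552, 71 to 307 and 214 to 1476 for the 3 differences.

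With the replicate number as a block, the adjusted p (limma) against siCHD4 was 0.0492 for DHRS1 with siDNMT1 and 0.0168 for DHRS3 with decitabine; the block changed no call of a paralog. The filter of 5 FPKM removed DHRS3.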
